A study of Mus musculus with 24 samples.

Results

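The imprinted genes tied to fetal growth that were followed through the mouse lacrimal gland (LG), and through spheres grown from it, were 10 in number, namely H19, Igf2, Dlk1, Meg3, Peg3, Plagl1, Cdkn1c, Grb10, Mest and Slc38a4. They were found by symbol among the 63862 rows of the expression tables, and all 10 were listed. H19, Igf2, Dlk1 and Slc38a4 were chosen by their measured FPKM, being among the largest rises of embryonic against adult LG in these same libraries. Every value of embryonic against adult LG given here for the 10 genes is therefore a description and carries no test.

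The data were RNA sequencing of C57BL/6 mouse tissue and cultures. Whole LG was taken from adult mice and from embryos in late gestation (embryonic days E17.5 and E19.5), with 3 libraries each. Lacrimal gland stem cell (LGSC) spheres were grown from the dissociated LG of mice that were 6-8 weeks old, in Matrigel without serum and with EGF, FGF10, Wnt3A and the ROCK inhibitor Y-27632. Those of passage 2 were collected at day 5 (2 libraries) and at day 7, day 10 and day 14 (3 libraries each), with 1 further library of passage 10 at day 7. No group carried a genetic change or a drug outside the medium. The labels do not say whether glands were pooled or which libraries came from separate animals or cultures. The p-values therefore measure the spread between libraries, which may be technical.

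Imprinted genes are read mainly from the chromosome of one parent. Many of them act on growth before birth, paternally expressed ones such as Igf2 and Dlk1 mostly as promoters of growth and maternally expressed ones such as H19, Cdkn1c and Grb10 mostly as brakes, and in most mouse tissues several of them are silenced together in the weeks after birth. They lie in clusters in which one control region acts on several genes, as for H19 with Igf2 and for Dlk1 with Meg3. The measurements here are levels per gene in FPKM (fragments relative to a gene's length and to the total of its library), which do not tell the parental copies apart. In whole glands, fewer cells of a type and less RNA per cell cannot be told apart either.

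In the GRCm38 build H19 (ENSMUSG00000000031) spans chr7:142575529-142578143 and Igf2 (ENSMUSG00000048583) chr7:142650766-142666816, both on the minus strand. Cdkn1c (ENSMUSG00000037664) lies further along at chr7:143458339-143461050, also on the minus strand. Dlk1 (ENSMUSG00000040856, chr12:109452823-109463336) and Meg3 (ENSMUSG00000021268, chr12:109541001-109571726) are neighbours on the plus strand. Peg3 (ENSMUSG00000002265) lies at chr7:6703892-6730431 on the minus strand, Mest (ENSMUSG00000051855) at chr6:30723547-30748465 on the plus strand, Plagl1 (ENSMUSG00000019817) at chr10:13060504-13131694 on the plus strand, Grb10 (ENSMUSG00000020176) at chr11:11930508-12038683 on the minus strand and Slc38a4 (ENSMUSG00000022464) at chr15:96994820-97055956 on the minus strand. H19 and Meg3 are long noncoding RNAs, and the other 8 genes code for proteins.

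H19, Igf2, Mest and Meg3 carry microRNAs inside their own transcripts, and those of H19, Igf2 and Mest are shown. The hairpins of miR-770 and miR-1906 in exons of Meg3 were listed at 0 in all 20 libraries of tissue and passage 2 spheres. Mature sequences from RefSeq (GRCm38.p6) are given 5′ to 3′ with the seed (bases 2 to 8) in capitals, for the hairpin in an exon of H19 (chr7:142577078-142577133), for the one in an intron of Igf2 (chr7:142654932-142654989) and for the one in an intron of Mest (chr6:30741314-30741375).
miR-675-5p: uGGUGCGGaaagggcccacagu
miR-675-3p: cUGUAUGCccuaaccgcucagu
miR-483-5p: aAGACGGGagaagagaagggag
miR-483-3p: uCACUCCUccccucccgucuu
miR-335-5p: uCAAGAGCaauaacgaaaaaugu
miR-335-3p: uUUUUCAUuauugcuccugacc
No pair of the 6 shares a seed. The libraries were made from poly(A) RNA and do not measure mature microRNAs. The hairpin in H19 stood at 0 in each of the 20 libraries of tissue and passage 2 spheres. It shares 84 exon bases with H19, and those of Meg3 lie in exons too, while those of Igf2 and Mest share 0. How reads in shared exon bases were assigned was not checked. A 0 for the hairpins in H19 and Meg3 is therefore no measure of absence and cannot be set beside the values of the hairpins in introns. The hairpin in the Igf2 intron was listed at 22.7 to 30.8 FPKM at E17.5 (48 reads in all), at 10.97 to 17.46 FPKM at E19.5 (25 reads) and at 0 in adult LG and in every sphere library. The hairpin in the Mest intron had at most 2.55 FPKM at E17.5 (2 reads), 2.27 FPKM at E19.5 (3 reads) and 5.35 FPKM in adult LG (4 reads), too few reads to set the groups apart, and was at 0 in the spheres.

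Plagl1, one of the 10, is a zinc finger transcription factor known to bind a palindrome of GGGG followed by CCCC. The promoters of these genes, its own included, were therefore searched for the palindrome. RefSeq (GRCm38.p6) gave promoter windows, from 250 bases before to 50 after a start site, for 8 of the 10 genes, 17 windows in all. No window was given for H19 and Cdkn1c. Windows of Mest at chr6:30737800-30738099 and chr6:30737803-30738102 overlap, so the 17 are not all separate promoters. The motif was found in 1 of the 17, that of Peg3 (chr7:6730370-6730669, minus strand), and in 354 of 32851 promoters of all genes (1.08%). The motif is in capitals.
Peg3 promoter: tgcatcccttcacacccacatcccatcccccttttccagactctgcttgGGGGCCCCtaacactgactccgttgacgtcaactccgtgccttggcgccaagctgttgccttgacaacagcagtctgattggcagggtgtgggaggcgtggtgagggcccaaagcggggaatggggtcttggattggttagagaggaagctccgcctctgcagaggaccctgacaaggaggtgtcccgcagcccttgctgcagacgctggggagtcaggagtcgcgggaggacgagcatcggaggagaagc
The match is a description of these letters and not a measured binding site. Over the 17 windows the median GC content was 55.7%, against 52.7% over all promoters, and the median ratio of observed to expected CpG was 0.446 against 0.384.

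Reads could be recovered from the steps of the low FPKM values and came to 6434281 to 9257025 in the 20 passage 2 and tissue libraries. Adult LG replicates 1 and 2 stood apart from the other 18, since the 10 most abundant genes took 60.4% and 59.6% of their reads, against 31.3% in adult LG replicate 3 and at most 8.07% in any embryonic library. Their deposited values were also on another scale (2.67 and 2.57 times as many reads as the scale implies, against 0.832 to 1.13 in the other 18 libraries). Scaling to the recovered reads moved the median log2 fold change of all genes from 0.05 to 0.64 for E17.5 and from 0.09 to 0.58 for E19.5 against adult LG. A low value in these 20 libraries need not mean that a gene is silent. Gapdh, Epcam and Krt8 were listed at 0 in all 20, while the passage 10 library, made against another gene list, held 3.001, 261 and 414 FPKM of them, and of 5333 genes at 10 FPKM or more in that library 2696 were at under 0.1 of it at day 7 of passage 2.

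H19 was the highest of the 10 genes in every embryonic library. It is a noncoding RNA made from the maternal chromosome, next to Igf2. Its level was 2145, 2018 and 1617 FPKM in the 3 E17.5 libraries, 2395, 2066 and 2165 FPKM in the 3 E19.5 libraries and 0.874, 0.532 and 2.32 FPKM in the 3 adult libraries. Every embryonic library was thus far above every adult one, and the adult values rested on 53 reads in all. Among genes at 1 FPKM or more, the mean of H19 was above 99.9% of genes at E17.5 and 99.8% at E19.5, and it alone took 0.410% to 0.587% of the reads of an embryonic library. The log2 fold change of FPKM + 1, the scale of all fold changes given here, was 9.82 ± 0.27 (SE) for E17.5 and 10.02 ± 0.27 (SE) for E19.5 against adult LG.

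Igf2, the insulin-like growth factor that drives growth of the fetus and placenta through the type 1 IGF receptor, came second. It was at 716, 612 and 566 FPKM at E17.5, at 695, 588 and 634 FPKM at E19.5 and at 1.23, 1.49 and 4.51 FPKM in adult LG. The log2 fold changes against adult LG were 7.65 ± 0.32 (SE) and 7.67 ± 0.32 (SE). The ratio of H19 to Igf2 in FPKM, which compares levels per length, was 2.86 to 3.30 at E17.5 and 3.41 to 3.52 at E19.5, so the E19.5 libraries lay above the E17.5 libraries without overlap, and it was 0.357 to 0.710 in adult LG.

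Dlk1, a membrane protein related to Notch ligands that holds back differentiation of fat and other cells, was at 478, 390 and 304 FPKM at E17.5 and at 363, 329 and 340 FPKM at E19.5, against 0.0733, 0.167 and 0.440 FPKM in adult LG. Its log2 fold changes against adult LG were 8.31 ± 0.19 (SE) and 8.15 ± 0.19 (SE). Meg3, the maternally expressed noncoding RNA of the same cluster, was much lower, at 12.4, 12.2 and 9.95 FPKM at E17.5 and 6.70, 6.25 and 7.82 FPKM at E19.5, and at 0, 0.0349 and 0.116 FPKM in adult LG. The ratio of Dlk1 to Meg3 was 30.6 to 38.4 at E17.5 and 43.5 to 54.2 at E19.5, again without overlap.

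Grb10, an adaptor protein that dampens signalling from the insulin and IGF receptors, was at 216, 210 and 180 FPKM at E17.5 and at 152, 139 and 147 FPKM at E19.5. Of the 10 genes it kept the highest adult level, with 2.74, 3.44 and 9.72 FPKM, and so its log2 fold changes were smaller than those of the other 4 genes above 100 FPKM, at 5.17 ± 0.35 (SE) and 4.71 ± 0.35 (SE). Mest, a paternally expressed member of the hydrolase family often used as a mark of mesoderm, was at 249, 235 and 193 FPKM at E17.5, at 179, 136 and 125 FPKM at E19.5 and at 0.630, 0.320 and 1.26 FPKM in adult LG. Slc38a4, a transporter of neutral amino acids, was at 95.5, 93.2 and 104 FPKM at E17.5, at 71.6, 79.8 and 75.5 FPKM at E19.5 and at 0.315, 0.160 and 0.431 FPKM in adult LG. H19, Igf2, Dlk1, Grb10 and Mest were thus above 100 FPKM in every embryonic library, and Slc38a4 was close to it.

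The remaining genes were near the lower end of what these tables resolve. Plagl1 was at 2.48, 1.90 and 1.89 FPKM at E17.5, at 1.08, 1.29 and 0.978 FPKM at E19.5 and at 0, 0.0403 and 0.0503 FPKM in adult LG (4 reads in all). Cdkn1c, an inhibitor of cyclin-dependent kinases, was at 2.77, 2.19 and 1.04 FPKM at E17.5, at 0.673, 0.764 and 0.875 FPKM at E19.5 and at 0, 0 and 0.129 FPKM in adult LG (2 reads), and its embryonic values rested on 12 to 44 reads a library. Peg3, a paternally expressed zinc finger protein, was at 1.61, 1.66 and 1.72 FPKM at E17.5, at 0.738, 0.726 and 0.344 FPKM at E19.5 and at 0, 0 and 0.0492 FPKM in adult LG (5 reads). No fold against adult LG is given for these 3 genes, whose adult levels rest on a few reads.

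All 10 genes were higher in each embryonic library than in each adult one at both stages. Over all 18578 genes tested, 32.3% were higher without overlap at E17.5 and 33.0% at E19.5, but the choice of genes had used this contrast, so nothing is read from the count. The highest adult level of all 10 genes was that of adult LG replicate 3, the adult library on the common scale. Leaving out 1 library at a time gave log2 fold changes at E17.5 from 9.58 to 10.14 for H19, from 7.41 to 8.06 for Igf2 and from 4.87 to 5.64 for Grb10, and scaling to recovered reads gave 10.18, 8.16 and 5.86. Together the 10 genes held 1.18% to 1.62% of the reads of an embryonic library and at most 0.0120% of those of an adult one.

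**Figure D1:**
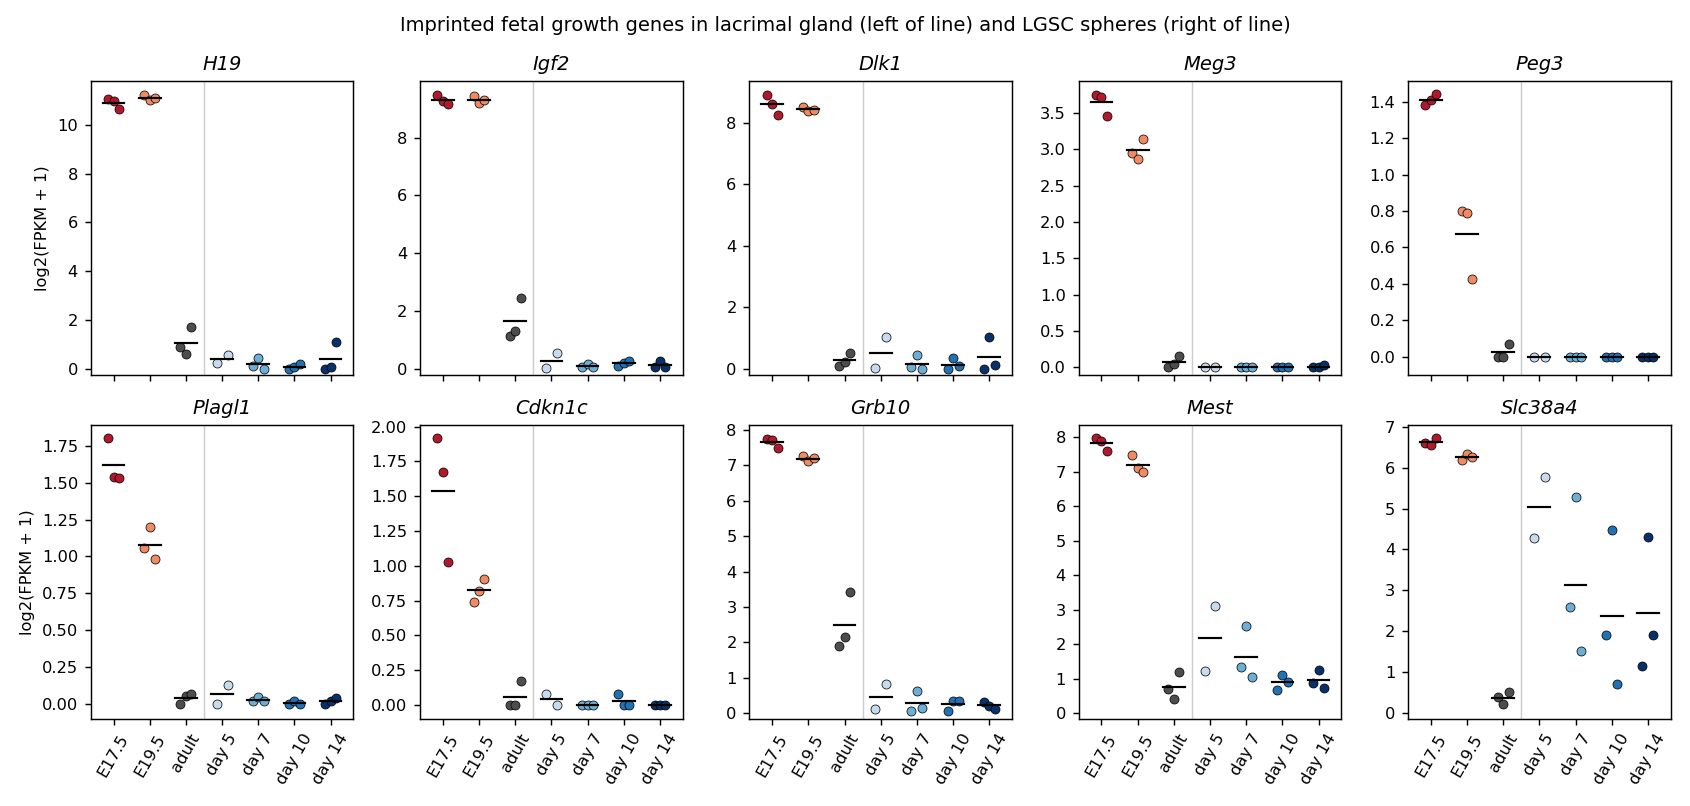
Level of each of the 10 genes, as log2(FPKM + 1), in every tissue and passage 2 sphere library, with 1 point a library, a line at the group mean and a separate vertical range for each gene. All 10 genes are highest in the 6 embryonic libraries, and only Slc38a4 and Mest are clearly above 0 in the spheres, Slc38a4 at 0.644 to 53.7 FPKM.

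Several neighbours of these genes in their clusters were in the tables too, and were tested with limma over all 18578 genes. These lists of neighbours and of other imprinted genes were made with earlier results known. Of 33 neighbours 19 passed the filter (a mean of at least 0.5 FPKM), and at E17.5 against adult LG 9 were higher and 3 lower, where 29.1% of all genes were called higher and 24.9% lower. Scaled to recovered reads the counts were 14 and 2, while the share of calls that were higher rose over all genes too, from 53.8% to 81.5%. Beside Peg3, Zim1 (a zinc finger gene) was at 24.5 ± 3.09 FPKM (SD, n = 3) at E17.5 and 0.0270 FPKM in adult LG on average (log2 fold change 4.63 ± 0.15 SE, adjusted p = 2.3e-07). In the Dlk1 and Meg3 cluster the noncoding RNA Rian (2.91 ± 0.15 SE, adjusted p = 2.1e-06), the microRNA host Mirg (2.40 ± 0.12 SE, adjusted p = 1.4e-06) and Dio3, the enzyme that inactivates thyroid hormone (4.81 ± 0.22 SE, adjusted p = 1.0e-06), were all higher by limma. Klf14, next to Mest, had a mean of 10.5 FPKM at E17.5 and was listed at 0 in all 3 adult libraries. Zim1, Rian, Mirg and Klf14, all near 0 in adult LG, met the filter through the embryonic libraries, the higher group. This could favour the direction called, here and for other such genes in this list and those that follow. The cluster of Cdkn1c held genes that went either way. Trpm5, a cation channel, was at 17.2 against 0.0342 FPKM (4.12 ± 0.18 SE, adjusted p = 7.8e-07), and the noncoding RNA Kcnq1ot1 at 0.877 against 0.249 FPKM (0.59 ± 0.12 SE, adjusted p = 0.0032). Lower were Slc22a18, a transporter, at 5.50 against 95.04 FPKM (-3.76 ± 0.34 SE, adjusted p = 3.8e-05), Ascl2, a bHLH transcription factor, at 2.12 against 15.9 FPKM (-2.35 ± 0.27 SE, adjusted p = 0.00015) and Kcnq1, a potassium channel, at 1.55 against 6.15 FPKM (-1.48 ± 0.17 SE, adjusted p = 0.00013).

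A wider list of 64 imprinted genes shares 14 of its tested genes with the neighbours above, among them 7 that were higher and 3 that were lower at E17.5. Of the 64, 37 passed the filter, and against adult LG 20 rose and 9 fell at E17.5, where 29.1% and 24.9% of all genes did. At E19.5 18 rose and 8 fell, where 30.3% and 23.9% did, with median log2 fold changes of 0.53 and 0.40 against 0.05 and 0.09 over all genes. Scaled to recovered reads the counts were 25 higher and 5 lower, and 22 higher and 4 lower, while the share of calls that were higher rose from 53.8% to 81.5% over all genes at E17.5 and from 55.9% to 81.4% at E19.5. The largest at E17.5 were Ndn, a gene of the Prader-Willi region that restrains proliferation, at 334 and 300 FPKM against 8.81 (log2 fold changes 5.20 ± 0.31 SE and 5.05 ± 0.31 SE, adjusted p = 4.4e-06 and 6.0e-06), and its neighbour Magel2, at 29.9 and 18.2 FPKM and listed at 0 in adult LG. At E19.5 Ndn again came first, followed by Zim1 (4.71 ± 0.15 SE, adjusted p = 2.8e-07) and Dio3 (4.30 ± 0.22 SE, adjusted p = 2.0e-06). Snrpn of the same region was lower than in adult LG, at 4.68 against 16.3 FPKM (-1.53 ± 0.29 SE, adjusted p = 0.0024). Peg10 was listed at 0 in all 20 libraries.

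**Figure D2:**
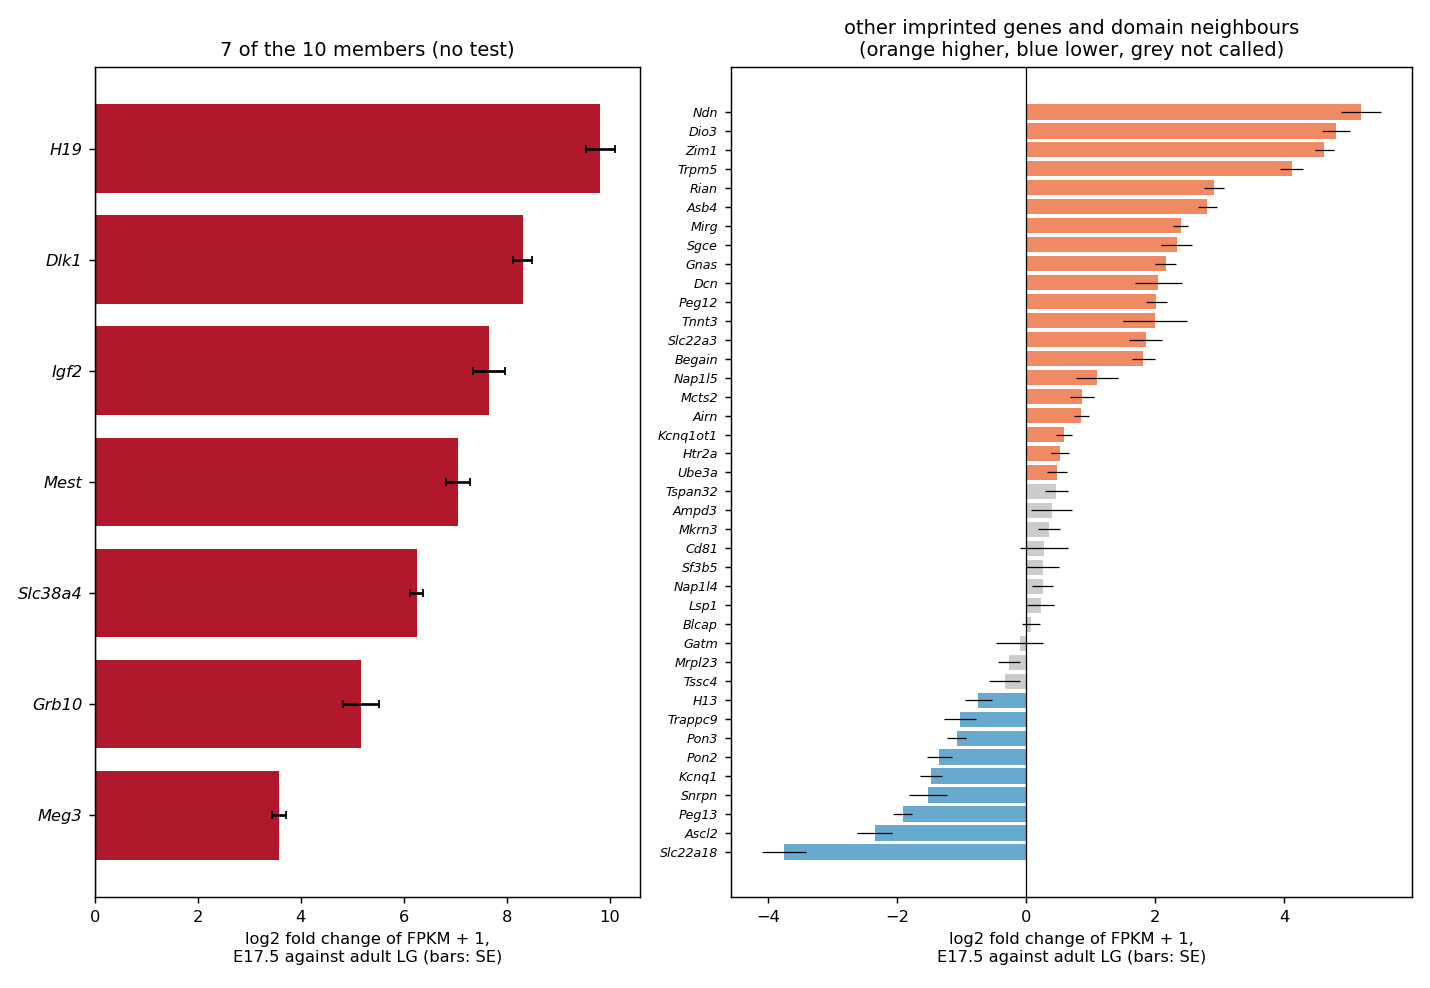
Log2 fold change of FPKM + 1 for E17.5 against adult LG, with bars of 1 SE, for 7 of the 10 genes (left, shown with no test because this contrast chose them, and without Peg3, Plagl1 and Cdkn1c) and for other imprinted genes and cluster neighbours (right). Klf14 and Magel2, listed at 0 in adult LG, are left out, and Ndn stands at 5.20 and Slc22a18 at -3.76 at the ends of the right panel.

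The IGF system around Igf2 was tested as a list. Of 22 genes of ligands, receptors, binding proteins and RNA-binding proteins 15 passed the filter, and 11 of them rose and 0 fell at E17.5, 12 and 0 at E19.5 (adjusted p under 0.05 by limma). Over all genes 29.1% rose and 24.9% fell at E17.5, and 30.3% and 23.9% at E19.5, and these shares are the background of each list that follows. Igf1, the non-imprinted relative of Igf2, was at 31.9 and 28.8 FPKM against 1.42 (3.79 ± 0.23 SE and 3.64 ± 0.23 SE, adjusted p = 5.0e-06 and 7.3e-06), a level well under that of Igf2 per length. The binding proteins Igfbp2, Igfbp3, Igfbp4 and Igfbp5 rose at both stages, Igfbp4 from 71.7 to 527 FPKM at E17.5. Igf2bp1, Igf2bp2 and Igf2bp3, RNA-binding proteins known to bind Igf2 mRNA, rose too, Igf2bp2 from 0.351 to 21.8 FPKM (4.07 ± 0.12 SE, adjusted p = 1.7e-07) and Igf2bp3 from 0.164 to 13.5 FPKM. The receptors could not be followed, since Igf1r and Igf2r had group means of at most 0.247 and 0.445 FPKM in the 20 libraries, against 7.99 and 18.98 FPKM in the passage 10 library.

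Of 12 non-imprinted relatives 7 passed the filter and 3 were higher at E17.5, which were Igf1, Plagl2 (6.25 to 17.1 FPKM, 1.31 ± 0.17 SE, adjusted p = 0.00029) and Slc38a3 (0.157 to 3.47 FPKM, 1.97 ± 0.20 SE, adjusted p = 8.1e-05). Dlk2 (-0.02 ± 0.16 SE, adjusted p = 0.93), Grb14 (-0.21 ± 0.26 SE, adjusted p = 0.53) and Slc38a1 (-0.03 ± 0.45 SE, adjusted p = 0.96) did not pass. Of 13 regulators of fetal growth 11 passed the filter, with Igf2bp1 and Igf2bp3 counted among the IGF genes too. By limma 10 of these 11 were higher at E17.5 and 1 was lower. The higher ones were led by the glypican Gpc3, at 458 and 461 against 1.77 FPKM (7.49 ± 0.30 SE and 7.50 ± 0.30 SE, adjusted p = 5.4e-07 and 6.4e-07), and Sox11 (5.21 ± 0.17 SE, adjusted p = 2.1e-07). The lower gene was Lin28a (0.0107 against 1.68 FPKM), which met the filter through adult LG. Igf2bp1 and Igf2bp3, near 0 in adult LG, met it through the embryonic libraries instead. Scaled to recovered reads the counts were 10 higher and 0 lower, so the call of Lin28a was lost. Of 16 genes that keep or erase imprints 10 passed, of which 7 rose and 1 fell at E17.5 while 5 rose and 2 fell at E19.5. Scaled to recovered reads 6 rose and 1 fell at each stage. Zfp57, which holds imprinted control regions methylated, was at 18.6 and 13.3 against 1.28 FPKM (3.10 ± 0.17 SE and 2.65 ± 0.17 SE, adjusted p = 2.6e-06 and 7.3e-06), and Dnmt3a, a DNA methyltransferase, at 33.2 and 24.3 against 7.18 FPKM. Kdm1b, a histone demethylase needed for imprints in the oocyte, fell at both stages by limma (-1.66 ± 0.41 SE and -1.98 ± 0.41 SE, adjusted p = 0.0083 and 0.0036). Its means were 11.2 and 8.78 FPKM against 42.7 ± 22.9 FPKM (SD, n = 3) in adult LG, so its adult libraries were widely spread.

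Summed levels of cell type markers in the glands differed as well, and these sums do not tell numbers of cells from RNA per cell. Of 8 markers of lacrimal acini 7 were listed and their sum, at least 246700 FPKM in each adult library, was at most 91.1 FPKM in the embryonic ones (Bhlha15 and Dcpp1 listed at 0). The summed level of 10 mesenchyme markers such as Col1a1 and Lum was 4514 to 5370 FPKM at E17.5, 4512 to 5454 FPKM at E19.5, 127 to 193 FPKM in adult LG and 0.672 to 5.51 FPKM in the spheres, and none of the 10 was at 0 throughout. The sum of 8 endothelial markers was 178 to 312 FPKM in the embryonic libraries and 82.3 to 284 FPKM in the adult ones, and that of 8 leukocyte markers (Cd68 listed at 0) was 40.2 to 53.5 FPKM in the embryonic and 624 to 1262 FPKM in the adult libraries. The sum of 8 epithelial markers (Epcam and Krt8 listed at 0) was 330 to 473 FPKM at E17.5, 762 to 953 FPKM at E19.5 and 759 to 1091 FPKM in adult LG. Sums of adipocyte, Schwann cell and skeletal muscle markers were also higher in every embryonic than in every adult library. The part of these differences in the levels of the 10 genes was not tested.

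**Figure D3:**
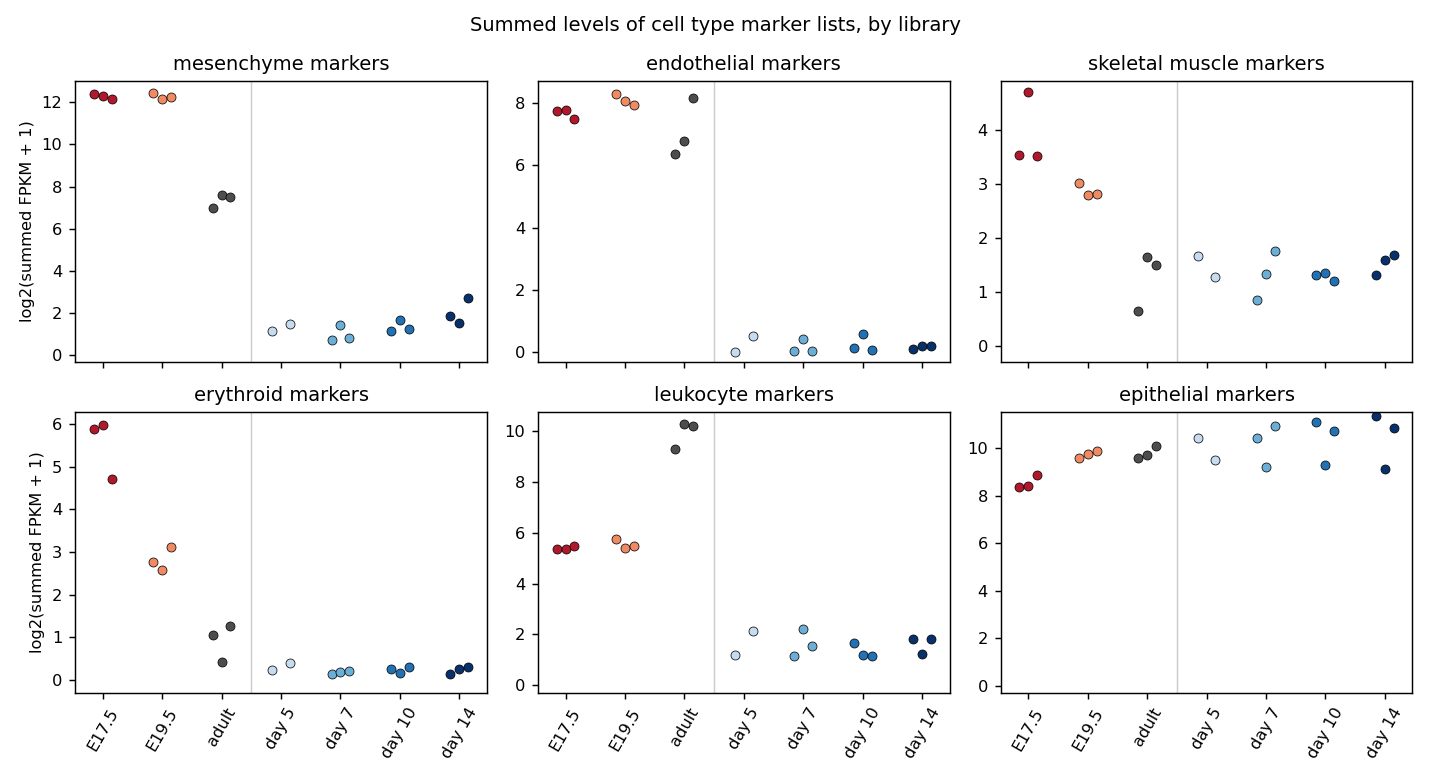
Summed level of 6 lists of cell type markers, as log2(summed FPKM + 1), with 1 point a library and a separate vertical range for each list. Mesenchyme markers are at 4512 to 5454 FPKM in the embryonic libraries, with the stages overlapping, at 127 to 193 FPKM in the adult ones and at 5.51 FPKM or less in the spheres.

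Over the 20 tissue and passage 2 libraries, the genes whose levels were most like those of the 7 genes averaging 0.5 FPKM or more came from a set of 10660 genes at 1 FPKM or more, with Pearson's r of log2(FPKM + 1) as the measure. The points share groups and scale, so r is a description. For Igf2 they were Capn6 (r = 0.999), Qprt (r = 0.999) and Arhgap20 (r = 0.998), and for H19 they were Qprt (r = 0.998), Prss34 (r = 0.997) and AW551984 (r = 0.997). For Dlk1 they were Zim1 (r = 0.997), Agtr2 (r = 0.997) and Crtac1 (r = 0.996). Meg3 had Col26a1 (r = 0.999), Mirg (r = 0.999) and Asb4 (r = 0.998), and Mest had Tmeff2 (r = 0.990), Ndn (r = 0.988) and Gm5483 (r = 0.987). Other imprinted genes, namely Zim1, Mirg, Asb4 and Ndn, thus came up for 3 of the 7. The share of imprinted genes among the 10660 was not counted, so nothing is read from this. For Grb10 the first was Clmp (r = 0.998). Slc38a4 had the loosest match, with Slc6a4 at 0.969, Vwa2 at 0.963 and Rab8b at 0.952.

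The comparison of E19.5 with E17.5 LG asked whether the genes change within late gestation, and the choice of genes had not used it. Of the 10 genes 8 were lower at E19.5, with a median log2 fold change of -0.50 over the 10 against 0.02 over all 18578 genes. For 7 of them, Meg3, Peg3, Plagl1, Cdkn1c, Grb10, Mest and Slc38a4, the 3 E19.5 libraries all lay below the 3 E17.5 libraries, where 15.3% of all genes did so, and none lay above, where 19.8% did. In the limma fit of the 9 tissue libraries 1 of the 10 passed the threshold, against 1.74% of all genes (0.624% lower), and 6 of the 10 had an unadjusted p under 0.05, against 15.3% of all genes.

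Peg3 was the gene that passed by limma (-0.74 ± 0.14 SE, adjusted p = 0.042), with its E19.5 mean at 0.363 of the E17.5 mean. It rested on 167 to 213 reads a library at E17.5 and 36 to 87 at E19.5. Its means were 1.66, 0.603 and 0.0164 FPKM at E17.5, at E19.5 and in adult LG. Peg3 thus met the filter on the mean of these libraries mainly through E17.5, the higher group, which could favour the direction called. Cdkn1c, also near 0 in adult LG and highest at E17.5, met the filter mainly through E17.5 too. This could favour its direction as well. Both genes are among those counted above as lower without overlap and as having an unadjusted p under 0.05, so these counts share that limit. Meg3 fell short of the threshold (-0.66 ± 0.14 SE, adjusted p = 0.064) at 0.601 of its E17.5 mean, as did Plagl1 (-0.54 ± 0.13 SE, adjusted p = 0.093), Cdkn1c (-0.72 ± 0.22 SE, adjusted p = 0.16), Slc38a4 (-0.36 ± 0.13 SE, adjusted p = 0.23), Mest (-0.63 ± 0.23 SE, adjusted p = 0.24) and Grb10 (-0.46 ± 0.35 SE, adjusted p = 0.62). H19 and Igf2 had values of opposite sign to these, H19 at 0.20 ± 0.27 (SE, adjusted p = 0.82) and Igf2 at 0.02 ± 0.32 (SE, adjusted p = 1.00), with overlapping libraries, and Igf2 turned to -0.09 when scaled to recovered reads. Dlk1 (-0.16 ± 0.19 SE, adjusted p = 0.79) overlapped as well.

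The spread of the adult libraries entered this fit. When the 6 embryonic libraries were fitted alone, 5 of the 10 genes were lower by limma, against 4.67% of all genes, which were Meg3 (adjusted p = 0.021), Peg3 (0.022), Grb10 (0.028), Slc38a4 (0.034) and Plagl1 (0.041), while Mest (0.052) and Cdkn1c (0.093) were not. The fit of 9 libraries without adult LG replicate 3 also called 5 genes. The call of Peg3 was lost with a pseudocount of 0.1 (adjusted p = 0.16), without the filter (0.066), when scaled to recovered reads (0.057), and when adult LG replicate 2 or any one of the 6 embryonic libraries was left out (0.066 to 0.17), while it held in limma-voom on the recovered reads (0.031) and without adult LG replicate 1 or 3. The log2 fold change of Peg3 stayed at -0.62 to -0.81 on leaving out a library, and it was -1.38 with a pseudocount of 0.1 and -1.52 in limma-voom. With a pseudocount of 0.1 Cdkn1c was at -1.18 and Plagl1 at -0.84, since adding 1 FPKM shrinks the fold of such low genes. Without E17.5 replicate 3 Cdkn1c was called instead (adjusted p = 0.041).

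**Figure D4:**
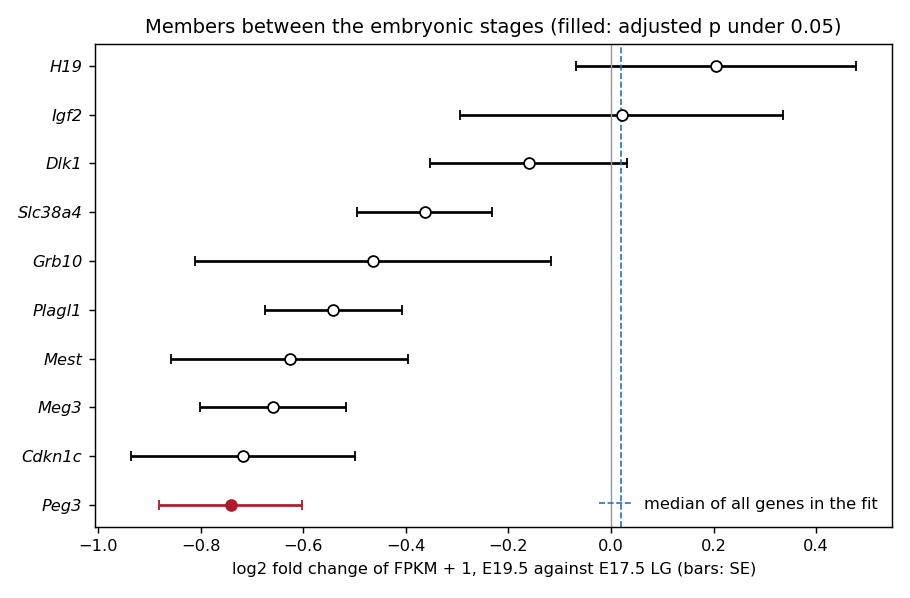
Log2 fold change of FPKM + 1 for E19.5 against E17.5 LG for each of the 10 genes in the fit of 9 tissue libraries, with bars of 1 SE and a dashed line at the median of all genes. Peg3 (filled, -0.74) passed the threshold, 7 genes lie to the left of 0 without passing it, and H19 and Igf2 lie at 0.20 and 0.02.

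Of the 19 cluster neighbours tested 2 fell and 1 rose between the stages by limma. Over all genes of this fit 0.624% fell and 1.11% rose. Rian fell from 6.89 to 2.502 FPKM (-1.16 ± 0.15 SE, adjusted p = 0.014), in the same cluster as Meg3, and Klf14 fell from 10.5 to 4.43 FPKM (-1.08 ± 0.18 SE, adjusted p = 0.028). Kcnq1 rose from 1.55 to 5.39 FPKM (1.32 ± 0.17 SE, adjusted p = 0.012). Scaled to recovered reads 0 neighbours were higher and 2 lower, so the call of Kcnq1 was lost. No other gene of the 37 other imprinted genes tested passed in this fit of 9 libraries. When the 6 embryonic libraries were fitted alone, 4 neighbours were lower and 3 higher, and 9 other imprinted genes were lower and 4 higher. Over all genes 4.67% were lower and 7.71% higher in that fit. Of the 11 other growth regulators tested 3 fell and 0 rose by limma in the fit of 9 libraries, and 5 and 0 in that of 6. In the fit of 9 Hmga2, a chromatin protein of fetal tissue, fell from 11.4 to 3.46 FPKM (-1.47 ± 0.13 SE, adjusted p = 0.0030). Sox11 (-1.10 ± 0.17 SE, adjusted p = 0.023) and Igf2bp1 (-0.69 ± 0.13 SE, adjusted p = 0.041) fell too, while Gpc3 did not pass (0.01 ± 0.30 SE). The call of Igf2bp1 was lost when scaled to recovered reads. None of the 10 tested genes of imprint maintenance passed in the fit of 9 libraries, while 4 were lower and 0 higher in that of 6.

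Some tissue markers moved between the stages as well. The sum of 7 erythroid markers (Hba-a1 listed at 0) was 25.3 to 62.3 FPKM at E17.5 and 4.99 to 7.67 FPKM at E19.5, that of 10 skeletal muscle markers (Acta1 listed at 0) 10.4 to 25.0 and 5.89 to 7.06 FPKM, and that of 8 epithelial markers 330 to 473 and 762 to 953 FPKM, all without overlap. The sum of 8 endothelial markers, 178 to 218 and 245 to 312 FPKM, and that of 6 adipocyte markers, 80.4 to 84.0 and 122.7 to 154 FPKM, were higher at E19.5 without overlap too, while mesenchyme, leukocyte and Schwann cell markers overlapped. The part of these changes in the values of the 10 genes was not tested.

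In LGSC spheres most of the 10 genes were listed close to 0. Over the 11 passage 2 libraries Peg3 was listed at 0 in all 11, Cdkn1c in 9, Meg3 in 8, Plagl1 in 4, and H19 and Dlk1 in 3 each. The highest values were 1.17 FPKM for H19, 0.464 FPKM for Igf2, 1.04 FPKM for Dlk1, 0.01996 FPKM for Meg3, 0.0943 FPKM for Plagl1 and 0.762 FPKM for Grb10. All reads of the 11 libraries came to 50 for H19, 66 for Igf2, 131 for Dlk1 and 186 for Grb10. These 8 genes had a mean under 0.5 FPKM over the spheres and were not tested there.

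Slc38a4 and Mest were the exceptions. Slc38a4 was at 18.4 and 53.7 FPKM at day 5, at 5.03, 38.1 and 1.86 FPKM at day 7, at 2.77, 21.1 and 0.644 FPKM at day 10 and at 1.22, 18.6 and 2.74 FPKM at day 14, in the order of the replicate numbers 1, 2 and 3. Replicate number 2 was far above the others at every day. Mest was at 1.34 and 7.62 FPKM at day 5, at 1.51, 4.73 and 1.08 FPKM at day 7, at 0.602, 1.15 and 0.879 FPKM at day 10 and at 0.825, 1.40 and 0.641 FPKM at day 14, and number 2 was again the highest at each of the 4 days. Dlk1 was highest in number 2 at all 4 days too, and Igf2, Grb10 and Plagl1 at 3 of 4. The libraries of number 2 also had the lowest summed level of the 8 epithelial markers (Epcam and Krt8 listed at 0) at every day, 553 to 732 FPKM against 1369 to 2650 FPKM in the others, and the part of this in the values was not tested.

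The culture time was the question of the sphere series. No gene passed the threshold between day 14 and day 7 by limma (0.00% of 15744, with 1557 or 9.89% at an unadjusted p under 0.05 and 0 by limma-voom), while limma-voom with the replicate block called 119 genes (0.983%), neither Mest nor Slc38a4 among them. By limma neither Mest (-0.69 ± 0.40 SE, adjusted p = 0.59) nor Slc38a4 (-0.68 ± 1.17 SE, adjusted p = 0.86) passed. Without day 7 replicate 2 the value of Slc38a4 turned to 0.39 and that of Mest was -0.24, but this leaves the day 14 library of number 2 in. Without any library of number 2 the values were -0.53 for Slc38a4 and -0.40 for Mest. By limma with the replicate block they were -0.68 ± 0.38 (SE, adjusted p = 0.49) and -0.69 ± 0.24 (SE, adjusted p = 0.37). Over all 4 days the slope per day on the log2 scale was -0.13 ± 0.05 (SE) for Mest (adjusted p = 0.22) and -0.23 ± 0.14 (SE) for Slc38a4 (adjusted p = 0.39), so that 0 of the 2 genes tested were called, against 2.14% of all 15584 genes. The slope of Mest was -0.072 without day 5 replicate 2 and -0.055 without all libraries of number 2.

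Spheres with the same replicate number deviated together, so the slope within a number is given too. Within numbers it was -0.12 ± 0.04 (SE) for Mest (adjusted p = 0.10 with the replicate block) and -0.18 ± 0.06 (SE) for Slc38a4 (adjusted p = 0.11 with the replicate block), where 5.02% of all genes were called. In limma-voom on recovered reads with the same block both genes fell (Mest -0.22 ± 0.05 SE, adjusted p = 0.024, and Slc38a4 -0.23 ± 0.06 SE, adjusted p = 0.026), where 5.82% of all genes fell by that test. From day 5 to day 14 Slc38a4 was 15.1-fold lower in number 1 and 2.88-fold lower in number 2, and Mest 1.63-fold and 5.46-fold lower. Number 3, with no day 5 library here, went from 1.86 to 2.74 FPKM of Slc38a4 between day 7 and day 14 and from 1.08 to 0.641 FPKM of Mest. Across the 11 libraries Slc38a4 and Mest had r = 0.782 on the log2 scale, given as a description, since the points share replicate numbers and days.

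**Figure D5:**
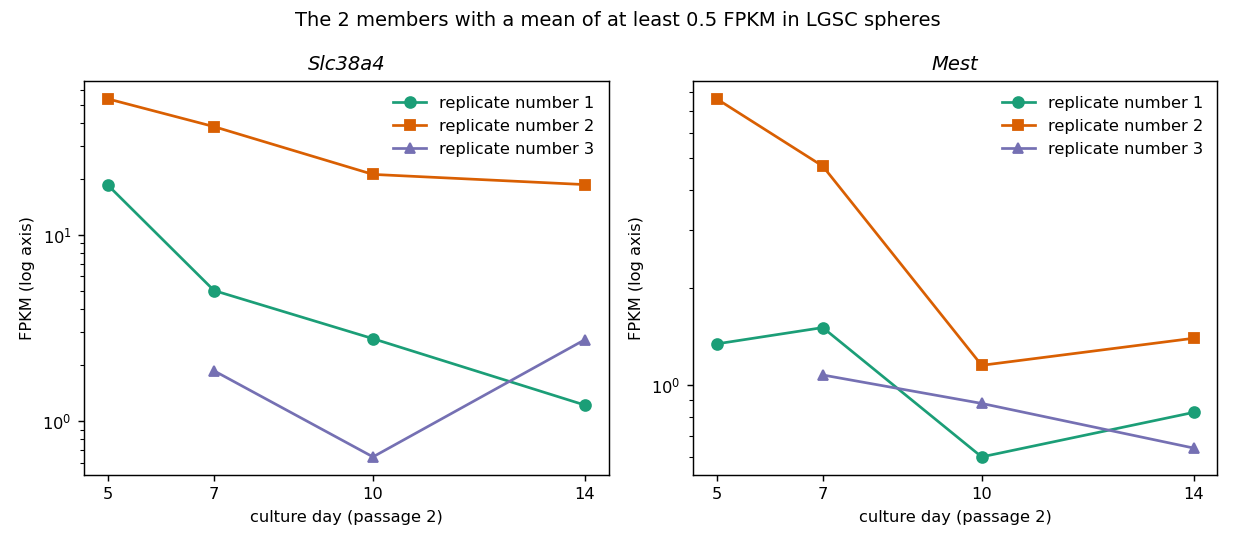
FPKM of Slc38a4 (left) and Mest (right) on log axes against culture day in passage 2 spheres, with 1 point a library and lines joining libraries of the same replicate number. Replicate number 2 is the highest at every day for both genes, and numbers 1 and 2 are lower at day 14 than at day 5, Slc38a4 by 15.1-fold and 2.88-fold.

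Set against adult LG, the gland the spheres came from, day 7 spheres differed among the 10 genes, and since the adult libraries had been used in choosing the genes these values carry no test. Slc38a4 was above adult LG in all 3 day 7 libraries (log2 fold change 2.76 ± 0.89 SE), where 22.9% of all 17698 genes were higher without overlap. Grb10 (-2.21 ± 0.43 SE), Igf2 (-1.54 ± 0.36 SE) and H19 (-0.89 ± 0.32 SE) were below it in all 3, where 29.5% of all genes were lower without overlap, and Mest overlapped (0.87 ± 0.43 SE). These orders are those of the deposited scale. As a share of recovered reads H19 overlapped, with at most 9.5e-05% of reads at day 7 against 5.1e-05% to 0.00052% in adult LG, and Mest was higher in all 3 (at least 0.00049% against at most 0.00045%), while Slc38a4 stayed above and Grb10 and Igf2 below. The other 5 genes had a mean under 0.5 FPKM over these libraries. None of the day 7 levels reached the embryonic range, the closest being 38.1 FPKM of Slc38a4 against a lowest embryonic value of 71.6 FPKM.

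The surrounding genes showed a mixed picture in the spheres by limma. Of 25 other imprinted genes tested 2 were higher and 10 lower at day 7 than in adult LG, against 14.2% higher and 21.1% lower over all genes. Scaled to recovered reads the counts were 4 and 3. That scaling raised the share of calls that were higher over all genes too, from 40.2% to 75.8%. These shares are the background of the rescaled counts below. The 2 higher were Ampd3 and Blcap, and those that fell most were Dcn, a proteoglycan of connective tissue listed at 0 in all 3 day 7 libraries against a mean of 112.5 FPKM, and Ascl2 (-3.33 ± 0.43 SE, adjusted p = 0.0022). Of the growth regulators 5 of 8 were higher and 1 lower, and scaled to recovered reads the counts were 6 and 0. Hmga2 was at 143 FPKM in day 7 spheres against 0.109 FPKM in adult LG (6.87 ± 0.42 SE, adjusted p = 0.00019), above its E17.5 mean of 11.4 FPKM, and Hmga1 was at 34.0 against 1.252 FPKM (3.98 ± 0.38 SE, adjusted p = 0.00078). Gpc3, among the highest of these genes in the embryo, was at 0.141 against 1.77 FPKM (-1.16 ± 0.35 SE, adjusted p = 0.044 by limma). Its call as lower was lost when scaled to recovered reads. Of 12 IGF genes tested 3 were higher and 5 lower, with a median log2 fold change of -1.04. Scaled to recovered reads the counts were 3 and 1, so most of the lower calls depend on the scale. Lower calls dropped with that scaling over all genes as well, from 3731 to 1754. On the deposited scale binding proteins led the lower ones, Igfbp6 at 0.315 against 61.7 FPKM (-5.47 ± 0.41 SE, adjusted p = 0.00037), Igfbp5 (-3.58 ± 0.70 SE, adjusted p = 0.0094) and Igfbp7 (-3.45 ± 0.69 SE, adjusted p = 0.010). Igf2bp2 was at 22.7 against 0.351 FPKM (4.13 ± 0.18 SE, adjusted p = 6.1e-05), close to its E17.5 mean of 21.8 FPKM, while Igf1 was at 0.0113 against 1.42 FPKM (-1.22 ± 0.24 SE, adjusted p = 0.0097).

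The kit used does not mark strand, so reads in exon bases shared by a gene and an antisense partner cannot be told apart. Whether such reads were given to either gene or left uncounted was not checked. A partner listed at 0 thus does not show that the level of the gene itself is unaffected. Mest shares 912 exon bases with Copg2 on the other strand (at most 0.259 FPKM in the 20 libraries), and Cdkn1c shares 625 of its 2039 with an antisense RNA listed at 0. Igf2 shares 98 with its antisense RNA Igf2os (at most 0.515 FPKM) and 3596 with Gm49394, a gene model on its own strand not listed in the tables.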

How the data were processed

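RNA of whole LG and of LGSC spheres was enriched for poly(A) and made into libraries with a kit that does not mark strand. The authors deposited FPKM per gene for each library. The submitters' processing notes name CASAVA 1.8, HISAT2 2.0.5, featureCounts 1.5.0-p3 and the build NCBIM37, whereas the coordinates given here are those of GENCODE M21 on GRCm38. Of 24 listed samples 21 were used, and the others were not analysed here.

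Reads were recovered from the steps of low FPKM values with GENCODE exon lengths, and 92.6% to 93.6% of genes checked (up to 1000 reads) gave whole reads within 0.01. Precision is limited by these reads, and counts of reads are given beside low values. Since the files held FPKM, limma 3.58.1 (R 4.3.3, lmFit and eBayes with trend) was fitted to log2(FPKM + 1) of genes averaging 0.5 FPKM or more, with Benjamini-Hochberg adjustment over all genes of a fit and a threshold of 0.05. Tissue comparisons used all 9 tissue libraries. The fit was tested on simulated data. The passage 10 library was used by value only.

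The 10 genes and all lists were chosen with earlier results of these data known. Named genes were the 10, up to 4 genes a list and comparison with the largest called change, groups that did not overlap and a mean of at least 1 FPKM, and genes next to or related to the 10. Lin28a, Ampd3, Blcap, Snrpn, and Gpc3 and Igf1 in day 7 spheres fall outside this rule and were named after their values were seen. Alternatives were a pseudocount of 0.1, no filter, scaling to recovered reads, limma-voom on recovered reads, a replicate block, other sets of libraries and leaving out each library in turn. Leaving out all spheres of number 2, limma-voom with the block and shares of recovered reads in day 7 spheres were chosen after seeing the data.

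Replicate numbers are in the sample titles. Deviations from group means of spheres with the same number correlated at 0.260 to 0.719 (15 of 15 pairs over 0.1), so the numbers were taken to pair the cultures, and in tissue at -0.0775 to 0.0663 (0 of 9 over 0.1), so there they were not.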

Additional observations from a re-analysis of the deposited data

Results flagged for a closer look

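The single passage 10 library, which entered no comparison, held 4 of the 10 genes above every passage 2 library of day 7. Plagl1 was at 1.66 FPKM (309 reads) against at most 0.0327 FPKM, Cdkn1c at 0.433 FPKM (21 reads) against 0 in all 3, Igf2 at 0.162 FPKM (22 reads) against at most 0.134 FPKM and Peg3 at 0.0600 FPKM (19 reads) against 0 in all 3. With 1 library the differences have no replicate check, and this library was made against another gene list and more deeply sequenced (25172949 recovered reads), so passage and processing cannot be told apart. Below every passage 2 library of day 7 were Slc38a4 at 0.0426 FPKM (4 reads) against 1.86 to 38.1 FPKM, Mest at 0.863 FPKM (81 reads) against 1.08 to 4.73 FPKM and Grb10 at 0.00925 FPKM (2 reads) against 0.0475 to 0.549 FPKM.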

How the results depend on the processing

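Between E19.5 and E17.5 LG the 323 genes called became 162 with a pseudocount of 0.1, 186 when scaled to recovered reads, 100 with the replicate block and 2144 in the fit of the 6 embryonic libraries, and leaving out 1 library gave 50 (without E17.5 replicate 1) to 1736 (without adult LG replicate 3). Of the 10 genes, 1 was called in the reported fit, 0 with a pseudocount of 0.1, without the filter, when scaled to recovered reads or with the replicate block, 5 in the fit of 6 libraries and 0 to 5 on leaving out 1 library. The value of Igf2 turned to -0.092 when scaled to recovered reads and ran from -0.054 to 0.115 on leaving out 1 library. Tissue numbers did not pair, and the block is given for completeness.

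Between day 14 and day 7 of the spheres 0 genes were called, also with the replicate block, and 119 by limma-voom with the replicate block, none of them Mest or Slc38a4. Slc38a4 ran from -1.61 to 0.394 on leaving out 1 library, which splits a pair of the same number. It was at -0.528 without any library of number 2. Over culture days 334 genes became 82 without the filter, 783 with the replicate block, 0 for days 7, 10 and 14 only and 1186 by limma-voom with the replicate block (2 of the 10 genes called), and 11 (without day 5 replicate 1) to 384 on leaving out 1 library. Day 7 spheres against adult LG gave 6238 genes, and 3770 (without LGSC day 7 replicate 3) to 8135 (without adult LG replicate 3) on leaving out 1 library. The counts for E17.5 (8428 to 11669) and E19.5 (8388 to 11701) against adult LG stayed within 1.5 times the reported ones. The cause of these changes was not tested. Depth limits Peg3, Plagl1, Cdkn1c and Meg3 in adult LG and all but Mest and Slc38a4 in spheres.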
